A study of Mus musculus with 12 samples.

Results

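The comparison set 2 lines of N2a cells, a mouse neuroblastoma line, against each other while both received an siRNA against Sap30bp. Both lines carried a FLAG-tagged, doxycycline-inducible Sap30bp cDNA that the siRNA does not target, at the Flp-In site of N2a Flp-In rtTA cells. The cDNA held exon 3 in the exon-3-containing line and lacked it in the exon-3-lacking line. The members were the 2 knockdown libraries of the exon-3-containing line and the 2 knockdown libraries of the exon-3-lacking line, 4 of 12 libraries in all. These cells received an siRNA against Sap30bp and no doxycycline, so the cDNA was not induced in either group. The other 8 libraries were 2 per line from cells given a non-targeting siRNA (control) and 2 per line from cells given the Sap30bp siRNA with doxycycline (rescue). Medium was changed 24 h after transfection and cells were collected at 72 h, and 1000 ng of RNA went into each stranded polyA library, with inserts of 540 nt on average. The isoform and the line were the same factor, 1 line per isoform, and the labels do not say whether a line was a single clone. Wells of matching condition were pooled before RNA extraction. The replicates are labelled as biological replicates, and their spread is all that the p-values below measure.

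SAP30BP is a nuclear protein, and in human cells it acts with the splicing factor RBM17 in removing short introns whose polypyrimidine tract is truncated. RBM17 takes part in recognition of the 3' splice site, where the branch point and the U2 snRNP are engaged before the first catalytic step. A failure at this step leaves an intron in the transcript or joins exons across a skipped one. Exon 3 of Sap30bp is itself an alternative exon. N2a cells come from a tumour of the sympathetic lineage, which is marked by transcription factors such as PHOX2A, HAND2 and GATA2.

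Splicing was given per library as percent spliced in, which is inclusion for an exon, usage for a splice site and retention for an intron, and differences are in percentage points, exon-3-containing minus exon-3-lacking line. Events with a value numbered 182904 and 183213 in the exon-3-containing knockdown libraries, and 207284 and 190273 in the exon-3-lacking knockdown libraries. The read depth is unknown, so no counting interval was computed. Gene expression was given as 1 RPKM value per group (reads scaled to transcript length and library size), with the authors' own log2 fold change and false discovery rate (FDR) per comparison, so no spread between libraries can be shown for genes. The cells had the markers of their label: in the authors' deposited table Phox2a was at 116.63 and 107.74 RPKM, and Hand2 at 155.48 and 166.23 RPKM, in the exon-3-containing and the exon-3-lacking knockdown groups. Th, the rate-limiting enzyme of catecholamine synthesis, was near 0 in both groups of the authors' deposited table, at 0.20 RPKM and 0.49 RPKM. Of 10 fibroblast markers, 5 of which had a test, 1 passed an FDR of 0.05 in the authors' deposited table (Pdgfra, higher), and their summed level was 3.2 RPKM in the exon-3-containing and 1.9 RPKM in the exon-3-lacking line, with Col1a1 near 0 at 0.13 RPKM and 0.06 RPKM. None of 10 glial and immune markers passed in the authors' deposited table, where they summed to 10.4 RPKM in each line, with the leukocyte gene Ptprc at 0.13 RPKM and 0.18 RPKM. Of 10 epithelial and muscle markers 1 passed in the authors' deposited table (Krt8, higher), and they summed to 29.7 RPKM and 33 RPKM.

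The targeted gene was measured first. Sap30bp RNA was not called between the knocked-down lines by the authors, while the inclusion of its exon 3 was lower in both exon-3-lacking libraries. The exon is 48 nt long, lies on chromosome 11 at chr11:115799324-115799371 (mm9, plus strand) and is coding, the third of 11 exons in the GENCODE M21 transcript ENSMUST00000140991.1. Its sequence is shown because it is what the cDNAs of the lines differ in, with the exon in capitals and 15 nt of the neighbouring exons in lower case.
Sap30bp exon 3: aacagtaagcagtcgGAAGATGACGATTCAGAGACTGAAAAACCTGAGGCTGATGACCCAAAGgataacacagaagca

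Sap30bp was at 18.6 RPKM in the exon-3-containing and 21.71 RPKM in the exon-3-lacking knockdown group in the authors' deposited table (log2 fold change -0.14, FDR 0.914). In control cells the authors' deposited table gives 33.59 and 40.03 RPKM, and knockdown against control gave log2 fold changes of -0.60 and -0.63, neither of which passed an FDR of 0.05 (0.0684 and 0.0674). Sap30bp RNA was below control in both lines by nearly the same log2 amount. Rbm17 was at 115.26 RPKM and 117.11 RPKM in the knockdown groups of the authors' deposited table (log2 fold change 0.02).

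Exon 3 of Sap30bp was included in 96.32% and 96.80% of transcripts in the exon-3-containing knockdown libraries, against 74.34% and 67.91% in the exon-3-lacking knockdown libraries. The means were 96.56% ± 0.34 and 71.12% ± 4.55 (SD, n = 2 each), and the groups did not overlap. The difference of 25.43 points (SE 3.01) had the smallest p-value of all tested events under knockdown, and its adjusted p was 0.107 (limma, Benjamini-Hochberg over 28980 events), so it was not called. In the authors' deposited table the difference was 24.77 points and was called. Without the filter on the mean percentage its adjusted p was 0.0262. Without exon-3-lacking knockdown replicate 1 the difference was 28.65 points with an adjusted p of 0.0488, in a fit where the lone library left is assumed to vary like the other groups. In control cells exon 3 was included in 94.01% and 95.77% of transcripts of the exon-3-containing line, against 90.88% and 89.98% in the exon-3-lacking line, a difference of 4.46 points. The line difference under knockdown exceeded the one in control by 20.97 points (SE 4.26, unadjusted p = 0.000444, adjusted p = 1, limma). With doxycycline the libraries of the exon-3-containing line were at 98.81% and 99.19%, against 11.69% and 5.87% in the exon-3-lacking line. The inclusion value in the uninduced exon-3-lacking cells thus lay between those of control and doxycycline-treated cells of the same line. Transcripts of the gene and of the cDNA cannot be told apart in the files.

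**Figure D1:**
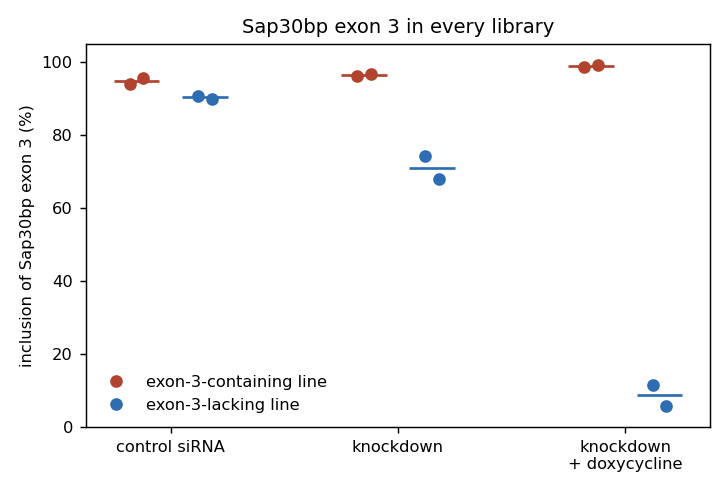
Inclusion of Sap30bp exon 3 (y axis, %) in each of the 12 libraries by condition (x axis), with points for libraries and short lines for means. Under knockdown both exon-3-containing libraries sit above 96% and the exon-3-lacking libraries are at 74.34% and 67.91%.

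The next question was which other splicing events separated the knocked-down lines. None of the 28980 tested events in 7019 genes was called (limma, Benjamini-Hochberg adjusted p under 0.05 and at least 15 points; 0% called), although 1849 had an unadjusted p under 0.05, where 5% of the events would be 1449. The same contrast in control cells called 0 events, with 1229 at an unadjusted p under 0.05, and the doxycycline-treated lines differed in 1 called event, Sap30bp exon 3 (0.00345%). The authors' own calls were far more: 202 of the 2081 events with a call for this comparison in the authors' deposited table, or 9.71% of a table that holds events changed in at least 1 comparison. The rule behind them is not stated in the files or labels beyond the 15 points. Leaving out exon-3-containing knockdown replicate 2 gave 5 calls (exons of Rin1, Stambpl1, Ttc39b and Shprh and a 5' splice site of Shprh), and leaving out exon-3-lacking knockdown replicate 1 gave 3 (exons of Sap30bp, Usp6nl and Nbea). In these fits the line has 1 knockdown library, which is assumed to vary like the other groups, so the calls rest on no replicate of their own.

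Among wide differences, more exons were lower than higher in the exon-3-containing line and more introns were higher than lower. Events were counted here when the lines differed by at least 15 points and the libraries of the lines did not overlap, a description with no test. Of the tested events 212 were of this kind (0.732%), against 165 in control cells (0.569%) and 294 with doxycycline. Among 6738 cassette exons, 18 were higher (0.267%) and 74 lower (1.10%) in the exon-3-containing line. Among 17096 introns, 55 were higher (0.322%) and 28 lower (0.164%). Alternative 3' splice sites were even, with 10 higher and 10 lower of 3115 (0.321% each), and alternative 5' splice sites had 9 higher (0.443%) and 8 lower (0.394%) of 2031. The calls in the authors' deposited table leaned the same way, with 21 cassette exons higher and 71 lower, 64 retained introns higher and 25 lower, and 3 microexons higher and 5 lower. Both counts come from the same libraries. The weakest of the 212 differed by 15.05 points and the strongest by 40.13 points, and a further 22 events passed 15 points with overlapping libraries. Between replicates the median absolute difference over all tested events was 2.69 points in the exon-3-containing and 2.42 points in the exon-3-lacking knockdown group. It was wider in the events counted here, at 9.7 and 8.55 points for the 55 introns that were higher, 5.17 and 9.17 points for the 28 that were lower, 5.25 and 5.94 points for the 18 exons that were higher, and 6.04 and 5.06 points for the 74 that were lower.

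Over all exons the difference was small. The median difference of the 6738 cassette exons was -0.72 points under knockdown, with 40.4% of them higher in the exon-3-containing line, against -0.49 points in control and -0.24 points with doxycycline. Introns had a median of -0.01 points under knockdown, -0.24 in control and 1.20 with doxycycline. Microexons of 3 to 27 nt had a median of -2.02 points under knockdown and -2.31 in control, with 2 of 195 higher and 6 lower past 15 points. Longer exons had medians of -0.90 points where the length was divisible by 3 (10 higher and 37 lower of 2752) and -0.53 points where it was not (6 higher and 31 lower of 3791). The microexon median lay furthest from 0, and it was of similar size without the knockdown.

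The 74 exons that were lower came from 67 genes and had a median length of 100 nt, against 108 nt for all tested exons. Their length was divisible by 3 in 58.1%, against 43.4% of all tested exons. Their median inclusion was 52.2% in the exon-3-containing and 69.9% in the exon-3-lacking knockdown group, and in control 60.2% and 70.3%. The exon-3-lacking value was thus about the same with and without knockdown, and the exon-3-containing value was lower with it. The 18 exons that were higher had a median length of 59.5 nt, with median inclusion of 71.7% and 52.1% under knockdown and 66.8% and 54.5% in control. These medians describe events picked by the same difference, so they show where the events lay and carry no test.

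The exons with the smallest p-values are printed here with the exon in capitals and 15 nt of each neighbouring exon in lower case (coding exons, GENCODE M21 sequence), since they are where the lines differed most clearly in relation to the spread; the Epb4.1l2 and Tbc1d23 exons are shown as those that differed in every condition and Sh3glb2 as one that differed under knockdown, and these 3 were picked after their values had been seen.
Itsn2, 46 nt: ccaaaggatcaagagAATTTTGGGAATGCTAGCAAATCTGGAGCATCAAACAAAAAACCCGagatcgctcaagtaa
Tars2, 125 nt: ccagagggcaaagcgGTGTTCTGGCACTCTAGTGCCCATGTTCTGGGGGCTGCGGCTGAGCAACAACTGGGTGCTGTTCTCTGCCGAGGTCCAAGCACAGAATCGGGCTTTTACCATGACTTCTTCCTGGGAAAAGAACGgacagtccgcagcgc
Numa1, 42 nt: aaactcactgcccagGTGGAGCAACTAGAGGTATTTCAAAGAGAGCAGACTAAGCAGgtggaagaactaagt
Sh3glb2, 63 nt: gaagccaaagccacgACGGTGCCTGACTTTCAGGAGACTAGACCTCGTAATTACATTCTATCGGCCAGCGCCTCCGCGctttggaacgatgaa
Epb4.1l2, 63 nt: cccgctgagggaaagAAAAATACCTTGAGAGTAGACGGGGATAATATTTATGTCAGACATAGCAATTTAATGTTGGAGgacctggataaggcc
Tbc1d23, 45 nt: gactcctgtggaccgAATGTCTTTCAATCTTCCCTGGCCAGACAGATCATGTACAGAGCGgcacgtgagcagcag

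Itsn2 encodes intersectin 2, an endocytic scaffold protein. Its 46 nt exon (chr12:4678079-4678124, mm9, plus strand) was included in 100% and 95.29% of transcripts in the exon-3-containing knockdown libraries, against 77.44% and 74.55% in the exon-3-lacking ones. The difference was 21.65 points (SE 2.75, adjusted p = 0.112, limma), and it was called in the authors' deposited table, at 21.22 points. In control cells the values were 100% and 97.37% in the exon-3-containing line, against 79.28% and 79.86% in the exon-3-lacking line. The groups were apart in both conditions, and the exon-3-containing line left almost no transcript without the exon. The following exons of 122, 97 and 192 nt, looked up after this value had been seen, differed by 19.99, 16.50 and 14.18 points in the same direction. The 4 exons lie next to each other in ENSMUST00000062580.7, as exons 25, 26, 27 and 28 of 39, so they are not independent observations.

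Tars2 encodes the mitochondrial threonyl-tRNA synthetase. Its 125 nt exon (chr3:95555429-95555553, minus strand), exon 4 of 18, was included in 62.64% and 59.73% of transcripts in the exon-3-containing knockdown libraries, against 84.03% and 83.42% in the exon-3-lacking ones. This difference of -22.54 points (SE 3.03, adjusted p = 0.127, limma) was wider than in control, where the libraries overlapped at 90.65% and 83.15% against 90.34% and 94.76%. Both lines were below their own control, the exon-3-containing line by more. The interaction, which is the difference of the line differences under knockdown and in control, was -16.89 points (SE 4.29, unadjusted p = 0.00232, adjusted p = 1, limma). Its length is not a multiple of 3. Tars2 RNA was at 28.8 RPKM in the exon-3-containing and 37.84 RPKM in the exon-3-lacking knockdown group of the authors' deposited table (log2 fold change -0.48, FDR 0.31).

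Numa1, which encodes a protein that tethers microtubules at the poles of the mitotic spindle, had a 42 nt exon (chr7:109150809-109150850, plus strand) with the same pattern. It was at 53.25% and 53.20% in the exon-3-containing knockdown libraries, against 73.20% and 66.65% in the exon-3-lacking ones, a difference of -16.70 points (SE 2.90, adjusted p = 0.31, limma). In control cells the values were 84.54% and 84.26%, against 87.17% and 85.28%. Lower inclusion after knockdown was seen in both lines, and the exon-3-containing libraries were the lowest of all 12. With doxycycline they were at 66.74% and 67.42%, against 80.18% and 80.15% in the exon-3-lacking line.

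Sh3glb2 encodes endophilin B2, a membrane-curving protein. Its 63 nt exon (chr2:30204075-30204137, minus strand) went the opposite way, with 87.50% and 82.44% in the exon-3-containing knockdown libraries, against 67.36% and 66.06% in the exon-3-lacking ones (difference 18.26 points, SE 3.47, adjusted p = 0.36, limma). Control libraries overlapped, at 57.79% and 57.58% against 56.62% and 64.37%. The lines were apart under knockdown and overlapped in control, with an interaction of 21.07 points (SE 4.90, unadjusted p = 0.00124, adjusted p = 1, limma).

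Other events separated the lines by 15 points or more with 1 sign in all 3 conditions, 7 in all. Epb4.1l2, which encodes the membrane skeleton protein 4.1G, held 3 of them. Its 63 nt exon (chr10:25213373-25213435, plus strand) was at 60.62% and 67.16% in the exon-3-containing knockdown libraries, against 43.12% and 48.97% in the exon-3-lacking ones, a difference of 17.84 points that was 25.68 points in control. The neighbouring 147 nt exon differed by 19.57 points under knockdown and 27.52 in control. A 54 nt exon of the same gene differed by 17.07 points and 30.79 points, and its value under knockdown was 8.80 points without exon-3-lacking replicate 1 and 25.34 points without replicate 2. The line difference of Epb4.1l2 was present without knockdown and was smaller with it for all 3 exons.

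Tbc1d23, which encodes a protein of vesicle tethering at the Golgi, differed in the other direction in its 45 nt exon (chr16:57181605-57181649, minus strand), at 50.91% and 56.92% in the exon-3-containing knockdown libraries, against 68.18% and 69.92% in the exon-3-lacking ones (difference -15.14 points under knockdown and -24.24 points in control). A 154 nt exon of Rpl22, which encodes a ribosomal protein, was at 37.86% and 42.39% against 72.85% and 58.87% (-25.74 points, and -16.13 points in control). These exons separated the lines in control cells too. Neither had an adjusted p under 0.5 under knockdown in limma.

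Further exons with wide differences were less even between replicates. The 159 nt exon of Mff, the receptor that recruits the mitochondrial fission machinery, was at 21.42% and 21.79% in the exon-3-containing knockdown libraries, against 56.05% and 36.87% in the exon-3-lacking ones (difference -24.85 points, and -15.26 without exon-3-lacking replicate 1). In control cells it was at 46.68% and 39.83%, against 68.04% and 56.64%. The 84 nt exon of Sh3pxd2a, an adaptor of invasive adhesions, differed by -25.06 points under knockdown and -12.28 points in control. The 156 nt exon of Ttc14 differed by 19.50 points and 8.03 points. In each of these the difference in control had the sign of the one under knockdown. A 45 nt exon of Tmem134 rested on a single library, since its 19.73 points became 4.38 without exon-3-containing knockdown replicate 2.

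**Figure D2:**
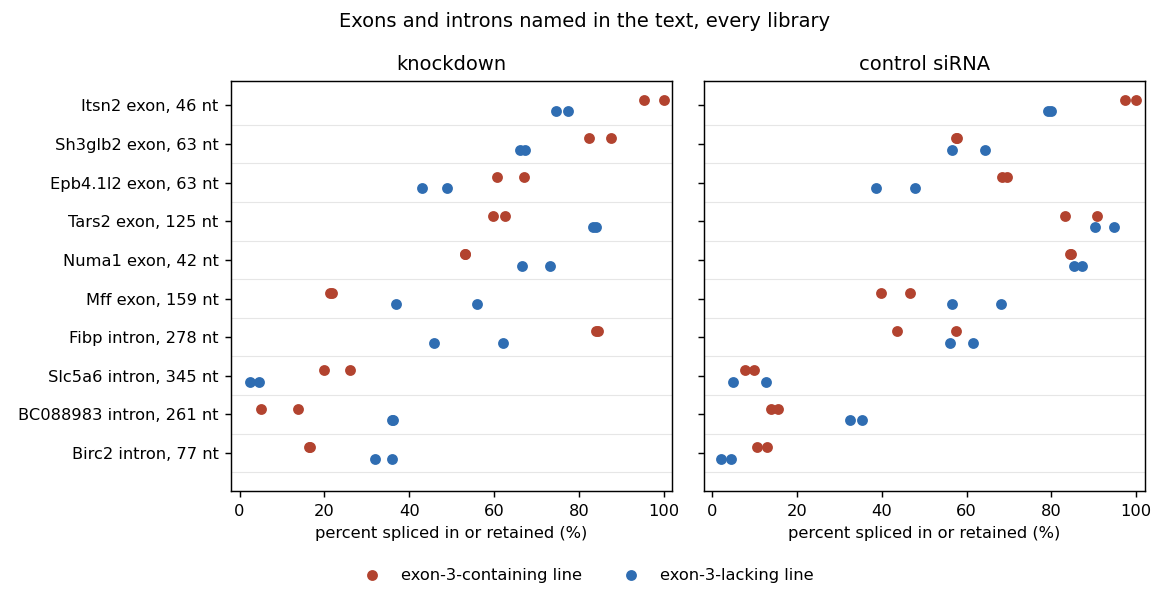
Percent spliced in of 6 exons and percent retained of 4 introns (x axis, %) in every knockdown library (left) and every control library (right), with 1 point per library. Tars2, Numa1, Sh3glb2, Fibp and Slc5a6 separate the lines under knockdown and overlap or nearly meet in control, while Itsn2 and Epb4.1l2 separate them in both.

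The introns past 15 points were picked by their difference under knockdown, so their medians describe them and carry no test, and a smaller gap in control follows in part from that choice. The 55 introns retained more in the exon-3-containing line had median retention of 42.6% in the exon-3-containing and 23.6% in the exon-3-lacking knockdown group, and of 24.6% and 22.1% in control. They had a median length of 351 nt, against 705.5 nt for all tested introns. The 28 introns retained less had medians of 17.3% and 37.3% under knockdown and of 20.2% and 30.7% in control, with a median length of 525 nt. Of introns under 100 nt 6 of 1958 were higher and 4 lower (0.511% in all), of those from 100 to under 200 nt 10 and 4 of 2106 (0.665%), of those from 200 to under 1000 nt 26 and 12 of 5939 (0.64%), and of those of 1000 nt or more 13 and 8 of 7093 (0.296%). The longest class had the lowest share. The median difference of these classes was -0.05, 0.19, 0.07 and -0.11 points.

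Slc5a6 encodes the sodium-dependent multivitamin transporter. Its 345 nt intron (chr5:31343172-31343516) was retained in 20% and 26.09% of transcripts in the exon-3-containing knockdown libraries, against 2.56% and 4.55% in the exon-3-lacking ones, a difference of 19.49 points (SE 3.54, adjusted p = 0.315, limma). In control cells it was at 9.80% and 7.69%, against 5.00% and 12.77%. Retention was thus highest in the exon-3-containing knockdown libraries and lowest in the exon-3-lacking ones. The 278 nt intron of Fibp, which encodes an intracellular binding protein of fibroblast growth factor 1, was at 84.00% and 84.62% in the exon-3-containing knockdown libraries, against 62.16% and 45.83% in the exon-3-lacking ones. That difference of 30.31 points (SE 5.80, adjusted p = 0.36, limma) ranged from 22.15 to 38.48 points when a knockdown library was left out, and in control the libraries overlapped at 43.66% and 57.38% against 61.40% and 56.16%.

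The reverse was seen in Birc2, which encodes an inhibitor of apoptosis with ubiquitin ligase activity. Its 77 nt intron (chr9:7818944-7819020) was at 16.28% and 16.67% in the exon-3-containing knockdown libraries, against 36.00% and 32.00% in the exon-3-lacking ones (difference -17.52 points, SE 3.23, adjusted p = 0.323, limma). In control cells the order was turned, with 10.64% and 13.04%, against 2.13% and 4.44%. The interaction of -26.08 points (SE 4.56) had an unadjusted p of 0.000131 and an adjusted p of 1 in limma. A 261 nt intron of BC088983 was at 5.07% and 13.83%, against 36.01% and 36.30%, a difference of -26.70 points that was -19.23 points in control. That intron separated the lines under knockdown and in control. With doxycycline the libraries overlapped and the difference was -0.39 points.

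Some of the widest intron differences had a large SE, though not all, since that of Fibp (30.31 points) had an SE of 5.80. The 214 nt intron of Prpf40b, which encodes a factor that binds the U1 snRNP, was at 65.20% and 100% in the exon-3-containing knockdown libraries, against 29.83% and 55.12% in the exon-3-lacking ones. Its difference of 40.13 points had an SE of 13.47 and was 22.73 points without exon-3-containing replicate 2. The 2523 nt intron of Ccnt2, a cyclin of the kinase that releases paused RNA polymerase II, differed by 30.37 points (SE 9.61) and by 19.78 points without exon-3-lacking replicate 1. The 1051 nt intron of Ppfia3, a synaptic scaffold protein, differed by 25.72 points under knockdown and 18.59 points in control. None of the introns had an adjusted p under 0.3 in limma.

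Alternative splice sites gave single events without a common direction. For Eef1a2, the neuronal and muscle elongation factor, a pair of sites at the ends of 1 intron moved in mirror image, with the 3' site used in 31.43% and 23.24% of transcripts in the exon-3-containing knockdown libraries, against 50.83% and 44.53% in the exon-3-lacking ones, and the 5' site at 68.57% and 76.69%, against 49.17% and 55.47%. Each site differs from its alternative by 1 nt, so both readouts may rest on the same reads. A 3' site of 0610007P22Rik had a difference of -19.56 points (67.24% and 60%, against 80.74% and 85.63%; adjusted p = 0.164, limma) where control libraries differed by 1.5 points. A 5' site of Matr3, a nuclear matrix RNA-binding protein, was at 36.11% and 37.14%, against 18.52% and 18.42% (18.16 points, and -1.92 points in control). A 5' site of Lyrm5, a regulator of electron-transferring flavoprotein in mitochondria, was at 21.21% and 30.16%, against 50.56% and 47.24% (-23.21 points, and 1.48 points in control). In these events the replicates stood closer to each other than to the other line.

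Of the 212 events, 157 had the same sign in control cells (74.1%, against 56.8% of all tested events), and 32 also passed 15 points there with libraries apart. Of the 202 calls in the authors' deposited table, 27 were also called between the control lines (13.4% of these and 12.6% of the 215 control calls), 21 with doxycycline, 7 in all 3 conditions, and 161 under knockdown alone. A call in 1 condition and not in another does not show a difference between them. The test of that difference called 0 of 28980 events in limma, with 927 at an unadjusted p under 0.05, fewer than 5% of them, and a lowest adjusted p of 0.998.

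Events that the authors call on knockdown in both lines could be compared directly for how far each line went. For the 249 introns of the authors' deposited table that were retained more on knockdown in both lines, the median change was 25.1 points in the exon-3-containing and 21.21 points in the exon-3-lacking line. The line difference under knockdown had a median of 1.96 points over these introns in the authors' deposited table and was above 0 in 150, against a median of -0.59 in control. Of the 249, 1 was called between the lines. For the 73 exons included less on knockdown in both lines, the median changes in the authors' deposited table were -23.35 and -21.58 points, and the line difference had a median of -3.47 points, against -2.03 in control. The responses to knockdown share their libraries with the line difference, so the values stand side by side and add no evidence to each other.

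At the gene level many genes separated the lines by the authors' own test. By the authors' FDR under 0.05, 624 of 21541 tested genes (2.9%) differed in the authors' deposited table between the knocked-down lines, 339 of them higher (1.57%) and 285 lower (1.32%) in the exon-3-containing line. The difference was at least 2-fold for 430 of them. Over all tested genes the median log2 fold change of the authors' deposited table was -0.02. The authors' deposited table calls 803 genes (3.73%) in control, 1.82% higher and 1.91% lower, and 708 (3.29%) with doxycycline, 1.55% higher and 1.74% lower. The 3 comparisons share no library. Of the 624 genes of the authors' deposited table, 602 (96.5%) had the same sign in control, against 72.9% of all tested genes, and 411 were also called there (65.9% of the knockdown calls and 51.2% of the control calls). In all 3 conditions 316 genes were called with 1 sign, and 134 were called under knockdown only, of which 124 had the same sign in control. Of the 13155 genes with at least 1 RPKM in either knockdown group, 506 were called (3.85%), 261 higher (1.98%) and 245 lower (1.86%), and 434 were apart 2-fold by the ratio of RPKM + 1 (3.3%), 274 higher (2.08%) and 160 lower (1.22%). Across these genes Pearson's r between the log2 fold changes under knockdown and in control was 0.66, over genes, which are not independent replicates.

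**Figure D3:**
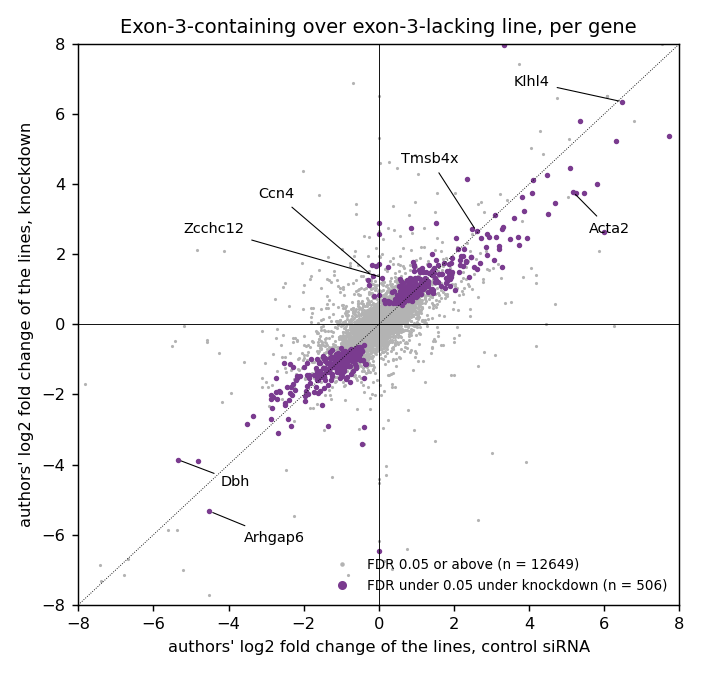
The authors' log2 fold change of the lines, exon-3-containing over exon-3-lacking, under knockdown (y axis) against that in control (x axis) for 13155 genes with at least 1 RPKM, with 506 genes that pass an FDR of 0.05 under knockdown in colour. Most coloured genes lie along the dotted line of equal values, and 15 genes fall outside the plotted range of 8 on either side.

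Among the 20 genes with the widest ratio of at least 5 RPKM, 10 in each direction, 8 passed the authors' FDR. The other 12 were pseudogenes, short RNAs and other genes with an FDR of 0.395 or more, and 9 of them were listed at 0 RPKM in 1 knockdown group. Klhl4, a kelch-like protein gene on the X chromosome, was at 14.9 RPKM in the exon-3-containing and 0.19 RPKM in the exon-3-lacking knockdown group of the authors' deposited table (log2 fold change 6.35, FDR 4.61e-77), and its log2 fold change in control was 6.49. Arhgap6, which encodes a GTPase-activating protein, showed the reverse at 0.17 RPKM and 7.04 RPKM in the authors' deposited table (log2 fold change -5.33, FDR 4.83e-20, control -4.51). Each gene was close to silent in one line and clearly expressed in the other, whatever the siRNA.

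Single genes that bind or form actin, or are known from muscle, are given next; they were picked after their values had been seen and stand for no group. Acta2, smooth muscle actin, was at 92.35 RPKM, against 7.17 RPKM for the exon-3-lacking line, in the authors' deposited table (log2 fold change 3.78, FDR 0.0103). Tmsb4x, thymosin beta 4, which binds actin monomers, was at 691.82 RPKM, against 108.03 RPKM, in the authors' deposited table (2.66, FDR 3.42e-08). Ankrd1, a muscle ankyrin repeat protein and target of YAP, was at 11.64 RPKM, against 0.67 RPKM, in the authors' deposited table (4.12, FDR 5.27e-07). The log2 fold changes in control for these genes of the authors' deposited table were 5.17 for Acta2, 2.6 for Tmsb4x and 4.1 for Ankrd1. Actg2, Lima1 and Tnnt2 had log2 fold changes of 1.93, 2.47 and 2.14 in the authors' deposited table. The muscle markers Acta1 (1.27, FDR 0.396), Des (0.53, FDR 0.713) and Myh3 (-0.33, FDR 0.691) were not called there. Ankrd1 rose on knockdown in both lines by the authors' deposited table, with log2 fold changes of 3.49 and 3.46, and the ratio between the lines stayed where it was in control.

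Of 32 measured genes of the extracellular matrix and adhesion, 6 were called higher and 0 lower in the authors' deposited table. Here and in the lists below, higher and lower mean the exon-3-containing against the exon-3-lacking knockdown group. Of all tested genes 1.57% were called higher and 1.32% lower. The list's median log2 fold change was 0.07. Col6a1, a chain of type VI collagen, was at 6.35 RPKM in the exon-3-containing and 0.28 RPKM in the exon-3-lacking line of the authors' deposited table (log2 fold change 4.47, FDR 3.92e-10), and Col6a2 at 0.86 RPKM and 0.01 RPKM (6.28, FDR 6.28e-08). Itgb3, the integrin beta 3 chain, was at 2.33 RPKM and 0.14 RPKM in the authors' deposited table (4, FDR 3.65e-10), and Itga5, the fibronectin receptor chain, at 4.62 RPKM and 1.46 RPKM (1.65, FDR 1.22e-06). Lama4, a laminin chain, and Ccn4, a secreted matrix protein, were the other members called, with 1.09 and 1.38 in the authors' deposited table. In control the log2 fold changes ran from 1.67 (Lama4) to 8.84 (Col6a2) for all but Ccn4. Beside this group, the fibroblast markers summed to 3.2 RPKM and 1.9 RPKM in the authors' deposited table, and their part in the result was not tested. Mesenchymal state genes had a median of 0.19 in the authors' deposited table, with 2 of 26 higher (Wwtr1 at 0.97 and Pdgfra at 1.03) and 0 lower.

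Adrenergic identity genes leaned the other way. Of 29 measured genes of this list 0 were called higher and 4 lower in the authors' deposited table, against 1.57% and 1.32% of all tested genes. The list's median log2 fold change was -0.21 under knockdown, -0.42 in control and -0.29 with doxycycline. Dbh, which makes noradrenaline from dopamine, was at 1.61 RPKM in the exon-3-containing and 14.32 RPKM in the exon-3-lacking line of the authors' deposited table (log2 fold change -3.86, FDR 3.17e-36). Ret, the receptor of the GDNF family, was at 37.41 RPKM and 71.14 RPKM in the authors' deposited table (-0.99, FDR 0.00528), and Tbx2 was at 2.48 RPKM and 4.74 RPKM (-1.02, FDR 0.0488). Phox2a, Hand2 and Gata2 were not called, with log2 fold changes of -0.10, -0.25 and 0.07 in the authors' deposited table. Of the 29 genes 9 were above 0, against 48.2% of all genes with at least 1 RPKM. In these bulk samples fewer cells of a type and less RNA per cell cannot be told apart.

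Among 34 synaptic and neuronal genes 1 was called higher and 3 lower in the authors' deposited table, with a median of -0.17. For this and the next lists, 1.57% of all tested genes were called higher and 1.32% lower. Gria2, a subunit of AMPA receptors, was at 2.61 RPKM in the exon-3-containing and 8.57 RPKM in the exon-3-lacking line of the authors' deposited table (log2 fold change -1.58, FDR 3.09e-08). Nefh, the heavy neurofilament chain, and Eno2, neuron-specific enolase, had log2 fold changes of -0.85 and -0.83 there. Nlgn1, a postsynaptic adhesion protein, was the member called higher, at 2.43 in the authors' deposited table. Of 34 axon guidance genes Nrp2, a semaphorin coreceptor, was called higher (0.90) and Slit1 lower (-2.20) in the authors' deposited table. Of 8 homeobox cluster genes with a test Hoxc10 was called lower (-1.53) in the authors' deposited table. The list's median was -0.50 under knockdown, -0.15 in control and 0.05 with doxycycline. Under knockdown 0 of the 8 were above 0, against 48.2% of genes with at least 1 RPKM, a level that 5 of the 8 reached.

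Lists of splicing genes had median log2 fold changes between the lines no further than 0.15 from 0. Of 17 factors around RBM17 at the 3' splice site 0 were called higher and 0 lower in the authors' deposited table (median -0.05). The same held for 49 core spliceosome genes (-0.03) and 24 genes of exon junction complexes and nonsense-mediated decay (0.02). Of all tested genes 2.9% were called, so lists of this size would hold few calls in any case. Snrpn, a small nuclear ribonucleoprotein gene listed below with the imprinted genes, was called higher in the authors' deposited table (1.09, FDR 0.00091). Of 41 SR and hnRNP protein genes Hnrnph2 was called higher (0.60, FDR 0.0425) in the authors' deposited table, where the list's median was 0.15. Of 31 neuronal and tissue splicing regulators 1 was called higher and 1 lower in the authors' deposited table. These were Msi2, a Musashi RNA-binding protein (0.69, FDR 0.0212), and Rbm20, a regulator of titin splicing in heart (-1.73, FDR 0.0107). The level of Rbm20 was below 1 RPKM in both lines of the authors' deposited table, at 0.08 and 0.50.

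Glycolysis genes were lower and ribosomal and respiratory genes mostly above 0 in the exon-3-containing line. None of the 21 measured glycolysis genes was above 0 in the authors' deposited table, and the median was -0.35. Of all genes with at least 1 RPKM 48.2% were above 0, and of all tested genes 1.32% were called lower. The 4 glycolysis genes called lower were the enolase Eno2 (-0.83), the aldolase Aldoc (-1.57), the glucose transporter Slc2a3 (-0.99) and the lactate transporter Slc16a3 (-0.70). The glycolysis median of the authors' deposited table was -0.32 in control and -0.84 with doxycycline. Cytosolic ribosomal protein genes had a median of 0.39 under knockdown, 0.28 in control and -0.19 with doxycycline in the authors' deposited table, with 30 of 36 above 0 and 0 called. Respiratory chain genes had a median of 0.32, 0.20 and -0.11 in the same conditions of the authors' deposited table, with 25 of 30 above 0 and 0 called. No single gene of the ribosomal and respiratory lists passed the authors' FDR.

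Sterol synthesis genes had medians of opposite sign under knockdown and in control. The median log2 fold change of 23 measured genes was 0.17 under knockdown in the authors' deposited table, against -0.37 in control and -0.22 with doxycycline. Knockdown against control had a median of 0.17 in the exon-3-containing and -0.44 in the exon-3-lacking line of the authors' deposited table. Hmgcs1, an early enzyme of the pathway, was at 106.48 RPKM in the exon-3-containing and 76.76 RPKM in the exon-3-lacking knockdown group, and at 91.3 RPKM and 112.78 RPKM in control, in the authors' deposited table. Idi1, which makes the isoprenoid building blocks, was at 87.01 RPKM and 58.05 RPKM under knockdown and at 59.79 RPKM and 72.84 RPKM in control in the authors' deposited table. Msmo1, a sterol demethylation enzyme, was at 90.53 RPKM and 66.13 RPKM under knockdown and at 76 RPKM and 108.05 RPKM in control in the authors' deposited table. The order of the lines was turned in all 3, but none of the 3 passed the test of the difference between conditions that is given below. None of them passed an FDR of 0.05 under knockdown either (0.11, 0.264 and 0.28). Nsdhl, of the same demethylation steps, was the one member that passed, at 25.42 RPKM and 12.44 RPKM in the authors' deposited table (0.96, FDR 0.000616).

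The calls in lists of stress, signalling, organelle, cell cycle and imprinted genes are set beside the 2.9% of all tested genes that were called. Of 22 p53 target genes 4 were called higher and 0 lower in the authors' deposited table (Fas, Gadd45a, Trp53inp1 and Eda2r), with a median of 0.04. Their log2 fold changes in control were 5.25, -0.26, 1.02 and 4.66. Of 33 immediate early and NF-kB genes 3 were called higher and 0 lower (Ccl2, Nr4a3 and Phlda1), with a median of -0.04. In control these had log2 fold changes of 6.32, 1.34 and 1.30. Eda2r, Fas and Ccl2 were listed at 0, 0.02 and 0.03 RPKM in the exon-3-lacking knockdown group. Interferon response genes had 2 of 24 called higher in the authors' deposited table (Ifit1 and Ifit2) and a median of 0.18. Ifit1 and Ifit2 had log2 fold changes of 3.47 and 3.50 in control, and were at 0.07 and 0.95 RPKM in the exon-3-lacking knockdown group. Of 30 lysosomal genes 2 were called higher and 3 lower in the authors' deposited table, with a median of -0.04. The higher ones were Lamp2, a lysosomal membrane protein, and Lipa, the acid lipase, and the lower ones were Gaa, Gusb and Mcoln1. Lists of the integrated stress response (29 genes, median 0.02), S phase (40, -0.03) and mitosis (32, -0.05) had 0 calls in the authors' deposited table. Of 24 imprinted genes 5 were called higher and 1 lower in the authors' deposited table, with a median of 0.53. The higher ones included Peg3 (0.92) and Snrpn, Snhg14 and Usp29 (1.09, 1.34 and 1.10), all on chromosome 7. Impact, on chromosome 18, was also called higher, and Grb10 lower.

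A smaller set of genes was called between the knocked-down lines and had a small line difference in control. Of the 624 genes 52 had a control log2 fold change under 0.5 in size in the authors' deposited table, 34 of them higher. Their small control value is the rule of choice and does not show a change with knockdown. With doxycycline 47 of the 52 had the same sign, against 617 of the 624. Those named here, at 5 RPKM or more, were chosen after their values had been seen. Ccn4, also known as WISP1, was at 16.14 RPKM in the exon-3-containing and 6.42 RPKM in the exon-3-lacking knockdown group of the authors' deposited table, and at 4.66 RPKM and 4.85 RPKM in control. Zcchc12, a zinc finger coactivator on the X chromosome, was at 44.58 RPKM and 18.17 RPKM under knockdown and at 18.62 RPKM and 17.68 RPKM in control in the authors' deposited table. Gadd45a, a stress-induced growth arrest gene, was at 30.26 RPKM and 13.74 RPKM under knockdown and at 9.64 RPKM and 12.05 RPKM in control in the authors' deposited table. In each the exon-3-containing line stood out after knockdown, while the exon-3-lacking line was near its control.

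Car6, a secreted carbonic anhydrase and the one gene of 12 chosen by ratio that passed the FDR (0.00246), was at 22.9 RPKM in the exon-3-containing and 6.91 RPKM in the exon-3-lacking knockdown group of the authors' deposited table, and at 2.02 RPKM and 1.97 RPKM in control. Lta4h, leukotriene A4 hydrolase, was at 103.84 RPKM and 52.06 RPKM under knockdown and at 41.17 RPKM and 44.13 RPKM in control in the authors' deposited table (log2 fold change 0.80, FDR 0.0156). Car6 was higher after knockdown in both lines and Lta4h mainly in the exon-3-containing one. The difference between conditions was itself tested from the authors' p-values, and 2 of 21541 genes passed (adjusted p under 0.05, 0.00928%; 288 at an unadjusted p under 0.05, against 1077 at 5%). These were Ccn4, whose log2 fold change between lines was 1.38 under knockdown and -0.17 in control in the authors' deposited table (adjusted p of the difference 0.00332, Benjamini-Hochberg), and Plcl1, a phospholipase C-like protein without catalytic activity (1.87 and -2.97, adjusted p 6.09e-06). Plcl1 was low throughout the authors' deposited table, at 0.84 RPKM and 0.24 RPKM under knockdown and at 0.01 RPKM and 0.08 RPKM in control. Zcchc12, Gadd45a, Car6 and Lta4h did not pass this test.

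**Figure D4:**
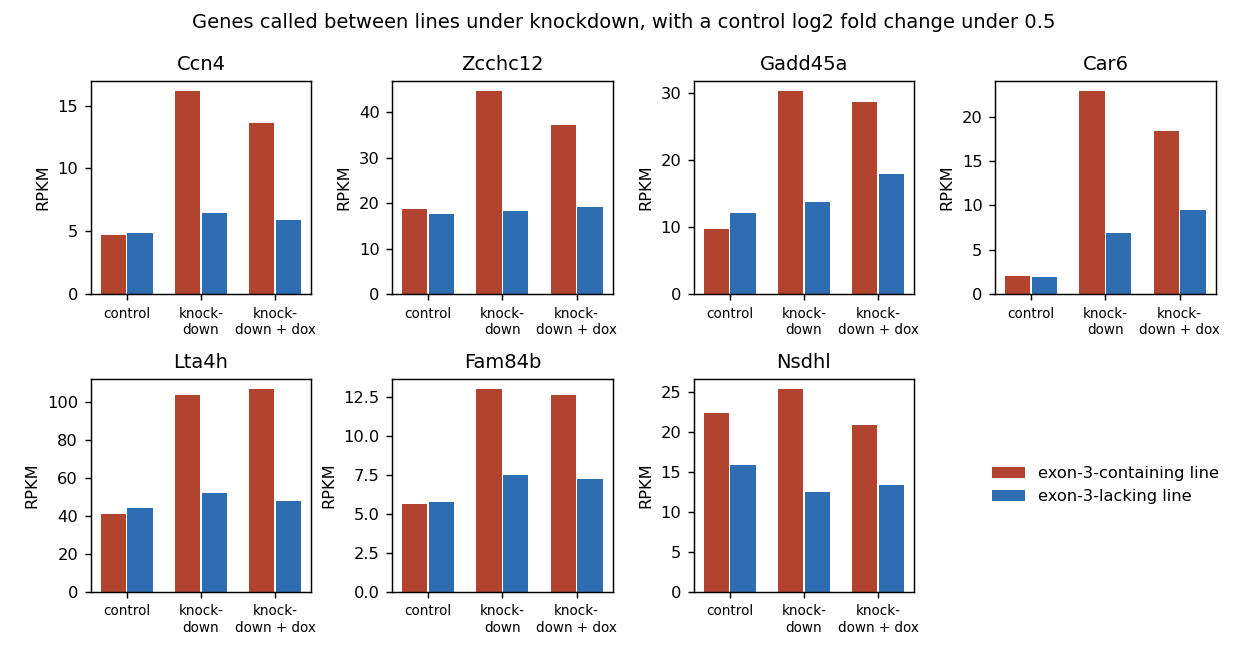
The authors' RPKM (y axis, 1 value per group, no replicate values available) of 7 genes in control, knockdown and knockdown with doxycycline (x axis). For Ccn4, Zcchc12, Gadd45a, Car6, Lta4h and Fam84b the lines are close in control and the exon-3-containing line is higher in both knocked-down conditions, and Nsdhl differs less between conditions.

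Genes called on knockdown in both lines were then set beside the line difference. The authors' deposited table has 154 genes that rose on knockdown in both lines, with a median line log2 fold change of 0.25 under knockdown and -0.11 in control, and 24 of them were called higher and 3 lower between the knocked-down lines. The 185 genes that fell in both lines had a median of -0.18 under knockdown and -0.13 in control in the authors' deposited table, with 5 called higher and 16 lower. The change was the larger in the exon-3-containing line for 90 of the 154 and for 130 of the 185 in the authors' deposited table. Knockdown changes and the line difference share the knockdown libraries, so these counts are given side by side only.

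The genes that differed were unevenly spread over the chromosomes. Of 9792 genes with at least 1 RPKM and a position, those on chromosomes X, 12 and 18 made up 8.93%, and they held 127 of the 411 called genes with a position (30.9%). These chromosomes were picked after the medians had been seen, so their larger share of calls follows in part from that choice. The 303 genes of the X chromosome had a median log2 fold change of 0.39 in the authors' deposited table, with 61 higher and 1 lower. The 331 genes of chromosome 12 had a median of -0.39, with 2 higher and 46 lower, and the 240 genes of chromosome 18 had a median of 0.28, with 17 higher and 0 lower, in the authors' deposited table. These medians were 0.35, -0.40 and 0.25 in control and 0.37, -0.39 and 0.31 with doxycycline, and no chromosome median under knockdown lay more than 0.07 from that in control. On the other 17 chromosomes the medians ran from -0.20 to 0.13 and 3.18% of genes were called, 127 higher and 157 lower. Genes of X, 12 and 18 that were not called had medians of 0.31, -0.34 and 0.25 in the authors' deposited table.

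Several genes named above lie on these chromosomes. Klhl4, Tmsb4x, Zcchc12, Nsdhl, Lamp2, Hnrnph2 and Eda2r are on X and were higher, and E2f6, a repressor of the E2F family (log2 fold change -2.84 in the authors' deposited table), is on chromosome 12. Arhgap6, the 1 called X gene that was lower, went against its chromosome. The called genes of chromosome 12 with the smallest FDR, chosen after the values were seen, included Pygl, liver glycogen phosphorylase, at 4.36 RPKM and 15.02 RPKM in the authors' deposited table, and Gpr22, an orphan receptor, at 4.31 RPKM and 15.91 RPKM. On X they included Mospd1 (13.51 RPKM and 3.53 RPKM) and Cetn2, a centrin of the centrosome (34.38 RPKM and 12.92 RPKM), in the authors' deposited table. Xist, the noncoding RNA of X inactivation, was at 88.14 RPKM and 102.23 RPKM in the authors' deposited table (log2 fold change -0.24, FDR 0.91). The number of chromosome copies in the lines was not measured.

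**Figure D5:**
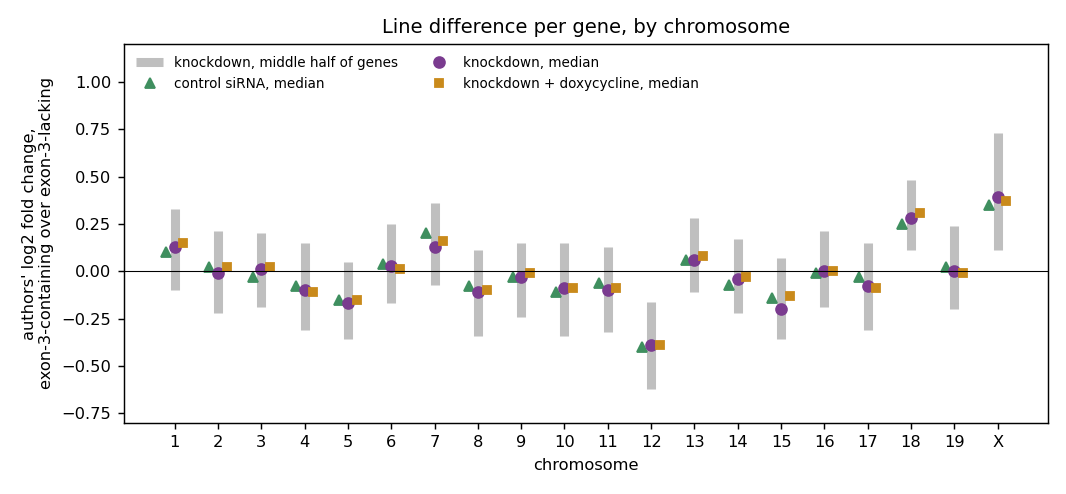
Median of the authors' log2 fold change of the lines, exon-3-containing over exon-3-lacking (y axis), for the genes of each chromosome (x axis) in control, knockdown and knockdown with doxycycline, with grey bars for the middle 50% of genes under knockdown. Chromosomes X and 18 lie above the others and chromosome 12 below them in all 3 conditions.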

How the data were processed

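Spliced shares were measured in 12 polyA RNA libraries and gene levels in 6 groups. The authors deposited percent spliced in per event and library, made with vast-tools on mm9 per the file name; no version and no rule for missing values is stated in the labels. The authors' deposited table of genes holds RPKM, 1 value per group with replicates combined, and for each comparison the log2 fold change with its p-value and FDR. Salmon 0.14.1 and edgeR are named without a role, per the submitters' processing notes. Another deposited table gives, for 2175 events, a difference in percentage points (a score here) and a yes or no call of the authors per comparison. Read numbers do not accompany the values, so depth is unknown. Columns with values per sample that were not used numbered 0.

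The members and gene lists were chosen with earlier results of these data known. Of 401633 entries, 37194 that stand for the first site of a group of alternative sites were left out. Kept events had no missing library among the 12 and averaged 2% to 98%. The percentages went into a limma 3.58.1 model (R 4.3.3) of 6 group means with trended, robust variance. A call needed 15 points and an adjusted p below 0.05 (Benjamini-Hochberg). Same-numbered replicates were tried as a block, and each library was left out in turn. This fit was tested on simulated data. Genes were to be described without a test, but the deposited table holds the authors' FDR, which was used as deposited; recomputing it from the p-values gave gaps of at most 0.0003. The difference between conditions was tested per gene by converting the authors' p of either comparison to a z with the sign of the change, and dividing the difference of both z by its standard deviation, which treats the comparisons as independent. RPKM ratios used a pseudocount of 1 RPKM over genes at 1 RPKM or more, so that they understate the difference of low genes. RPKM ratios and deposited log2 fold changes differed by a median of 0.08 at 5 RPKM or more, and by much more for some genes. Chromosomes came from positions in the inclusion table.

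Events named were the 4 of each type with the smallest unadjusted p past 15 points, since fewer than 5 were called, 1 per gene, and Sap30bp exon 3. Genes named were the 10 highest and 10 lowest ratios at 5 RPKM or more, the 6 highest and 6 lowest with a control ratio under 0.5, up to 4 members per list, Sap30bp, Rbm17 and host genes. Further names were added after their values had been seen: list members that were called, exons next to a named exon, events past 15 points in every condition or widest in difference, genes with a control log2 fold change under 0.5, actin-linked genes and the lowest FDR of chromosomes X, 12 and 18. Exon sequences were taken from GENCODE M21 transcripts, where 16 of 18 named exons were found by length and position in the gene. Python 3.11.15, pandas 2.3.3 and matplotlib 3.10.9 were used for tables and figures. Some items are not reported here.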

Additional observations from a re-analysis of the deposited data

Results flagged for a closer look

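For 2 genes a test of the difference between conditions passed. It compared z-values, which depend on precision as well as on the size of the log2 fold change. A further statistic divided the difference of the log2 fold changes by a standard error worked back from the same p-values. The same 2 genes passed with it. The line log2 fold change of Ccn4, a secreted matrix protein, under knockdown was 1.55 above that in control (adjusted p = 0.00332, Benjamini-Hochberg over 21541 genes, from the authors' p-values), and with doxycycline its line log2 fold change in the authors' deposited table was 1.24. For Plcl1, a phospholipase C-like protein, the gap was 4.85 (adjusted p = 6.09e-06), and its RPKM was under 1 in both knockdown groups of the authors' deposited table.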

How the results depend on the processing

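For splicing under knockdown, 0 events were called (limma, 1849 at an unadjusted p under 0.05; 202 by the authors). Without the filter on the mean percentage, 1 event, an exon, was called (Sap30bp exon 3, 25.43 points, adjusted p = 0.0262), and 1 for the difference between conditions (a 3' site of Saal1, 15.57 points). Leaving out each library in turn gave 0 to 5 events, 0 to 4 exons and 0 to 1 alternative 5' splice sites, 0 to 3 events for the difference between conditions, 0 to 1 in control, and 22.22 to 28.65 points for Sap30bp exon 3 (adjusted p = 0.0488 without exon-3-lacking knockdown replicate 1). Without trend and robust variance, control had 5 calls. With the replicate numbers as a block, 0 events were called and Sap30bp exon 3 kept 25.43 points (adjusted p = 0.144); deviations of same-numbered knockdown libraries correlated at 0.128, and over all pairs of groups from 0.042 to 0.31. Apart from Sap30bp exon 3, all 740 alternative values of the 37 other named events kept their direction and stayed above an adjusted p of 0.05. Genes past 2-fold by RPKM numbered 434, against 804 with a pseudocount of 0.1 and 1662 at 1.5-fold, and list members past it 21, against 35 and 88. Genes at an authors' FDR under 0.01 numbered 352, against 624 at 0.05. Chromosomes with a median of 0.25 or more in size by RPKM ratio numbered 2 of 20, against 1 without a filter on low values and 1 without genes the authors call. Genes whose line difference differed between conditions were 2, against 1 (Ccn4) at 1 RPKM or more. Of 745 alternative values of named genes 72 moved by 0.1 or more (log2), and of the alternative list medians 14 did while 88 did not; medians of the fibroblast and the glial and immune markers could not be computed at 5 RPKM or more. The causes were not tested. The settings for FDR, RPKM minimum and authors' calls were chosen after seeing the data. Fits that leave out a knockdown library assume that the lone library left varies like the other groups. Depth is unknown.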
